A study of Mus musculus with 33 samples.

Results

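The 6 genes followed here through fasting and refeeding in mouse liver are ones that glucocorticoid hormone is known to induce. They are Zbtb16, Lpin1, Fkbp5, Tsc22d3, Sgk1 and Tat, of 8252 genes with a probe set of their own on the array. Every probe set annotated to 1 of these symbols alone was taken, which gave 7 of the 12488 probe sets on the array. Of these, 5 probe sets of 5 genes were called present on at least 3 of the 33 arrays and were tested among 6568 probe sets. The single probe set of Tsc22d3 and the other of the 2 probe sets of Zbtb16 were called present on no array and were not tested.

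Liver RNA of male adult mice in 33 samples was hybridised to Affymetrix MG-U74Av2 arrays, 1 array per sample. A first group was fasted for 24 h and not injected (n = 5). Other mice were fasted for 22 h and injected with rapamycin at 10 mg/kg, an inhibitor of the mTORC1 kinase complex, or with its vehicle of saline and ethanol. They were killed 2 h later (0 h) or returned to food and killed 3, 6 or 12 h afterwards (n = 3 per group, 8 groups). Nonfasted mice were injected with vehicle or rapamycin and killed after 24 h (n = 2 in each group). No group was kept without food while others were refed. In the refeeding comparisons food, hours since the injection and any difference in time of day therefore cannot be told apart. The same holds for nonfasted mice, killed 24 h after the injection, against mice at 0 h, killed 2 h after it. The labels read here name no genetic change. The data used here hold no hormone, insulin or glucose measurement.

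In fasting the adrenal cortex releases glucocorticoid, which enters hepatocytes, binds the glucocorticoid receptor and sends it to the nucleus. The receptor binds DNA as a dimer at a palindromic element of paired half-sites and raises the transcription of genes for amino acid breakdown, glucose production and lipid handling, as well as genes that limit its own action. Food and the insulin that follows it oppose many of these genes in liver.

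Levels are the authors' linear average-difference intensities, which can fall below 0 and which were put on 1 scale by the authors. Log2 changes were taken after values under 6.31 were raised to that floor. The authors' own cut-off for low values was 30, and a group with all arrays at or below 30 is treated as not well above background. A gene is called higher or lower where limma's adjusted p (Benjamini-Hochberg over 6568 probe sets) was under 0.05. Levels of different probe sets cannot be set against each other.

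The arrays fell into 2 sets by their share of values at or below 0, which was 35% to 40.8% in 16 arrays and 24.2% to 28.2% in 17. The sets are not given by the labels. The uninjected fasted group, the vehicle groups at 0 h and 6 h and the nonfasted rapamycin group lay wholly in the first set. The rapamycin group at 0 h, the vehicle groups at 3 h and 12 h, the rapamycin group at 12 h and the nonfasted vehicle group lay wholly in the second. The rapamycin groups at 3 h and 6 h held arrays of both. Of the comparisons below, vehicle at 6 h with vehicle at 0 h and rapamycin at 12 h with rapamycin at 0 h each stay within 1 set, and they are the ones on which the account leads. Of 6 hepatocyte markers listed, 4 were on the array and all 4 were tested, with summed intensities of 12454 to 18325 per array. The lymphocyte markers Cd3e, Cd79a, Cd79b and Cd8a (4 of 5 on the array) were called present on no array. The muscle markers Acta1, Ckm and Myh4 and the cholangiocyte markers Krt19 and Epcam were also called present on no array. Markers of other cell types were detected. The sums per array were 683 to 3000 for erythroid markers, 708 to 1319 for stellate cell or fibroblast markers and 347 to 1027 for Kupffer cell or macrophage markers.

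All 5 detected genes were lower after 6 h of food than at 0 h in vehicle-treated mice, and 6.9% of all tested probe sets were called lower in that comparison. The genes, and the gene lists used further below, were chosen with earlier results of these data known. Their counts beside the shares of all probe sets are therefore a description and not a test. Lpin1 fell by 3.68 on the log2 scale, Fkbp5 fell by 3.09, Sgk1 fell by 1.41 and Tat fell by 0.97, and Zbtb16 was at least 8.12-fold lower. Each gene was also called lower at 3 h and at 12 h. In no comparison of rapamycin with vehicle was any of the 5 called. Of all tested probe sets, 0.0152% to 5.36% were called either way in these comparisons, so 0 of 5 does not set these genes apart. The median log2 change of all tested probe sets was 0.27 at 3 h, 0.02 at 6 h and 0.24 at 12 h against vehicle at 0 h, while that of the 5 genes was -2.60, -3.09 and -1.67.

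**Figure D1:**
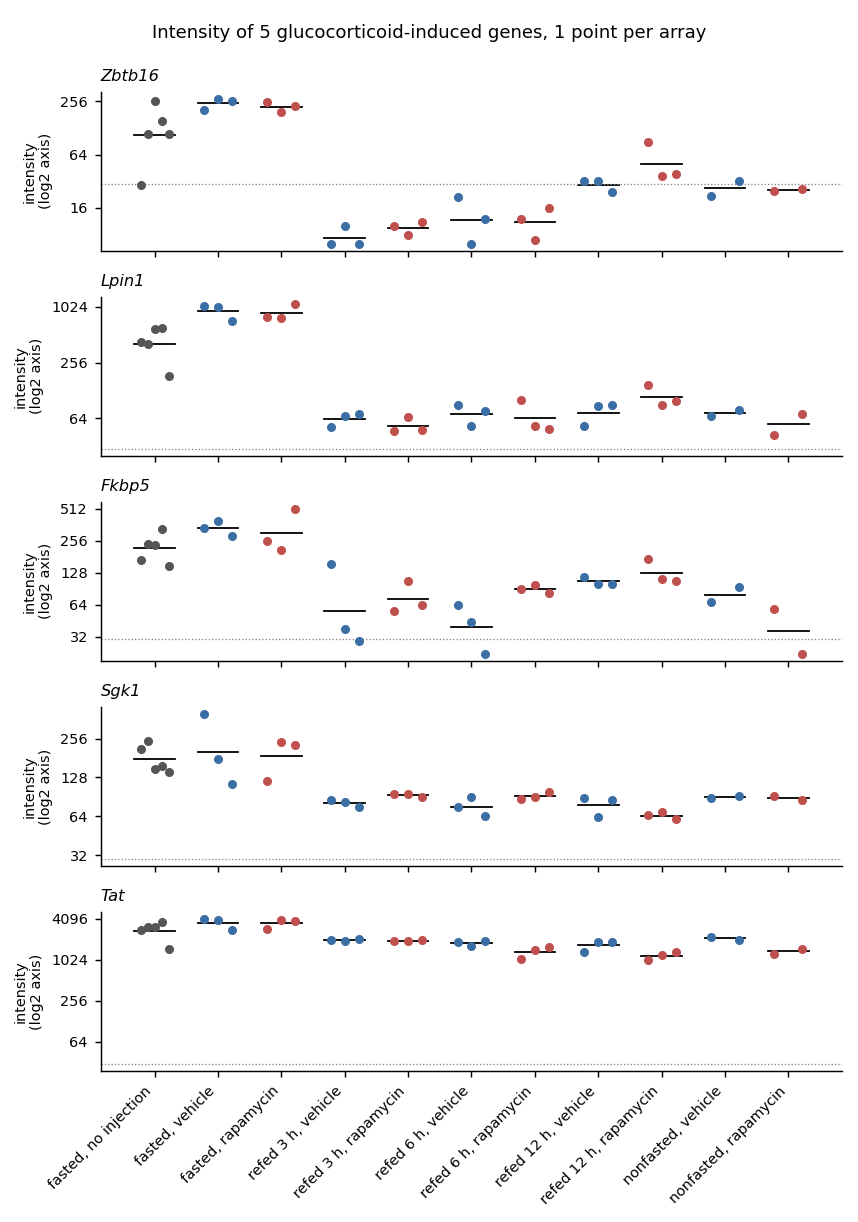
Intensity (log2 axis) of 5 genes on each array in 11 groups, with 1 point per array, the mean of the floored log2 values as a black line, and a dotted line at 30. Grey, blue and red stand for no injection, vehicle and rapamycin, and values under 6.31 are drawn at 6.31. The 6 injected fasted arrays lie above all 22 refed and nonfasted arrays in every panel.

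The promoters are shown because the receptor's element is the feature that the known biology of these genes turns on. RefSeq windows from 250 bases before to 50 bases after an annotated start (GRCm38.p6) matched 5 of 6 genes, with 12 windows in all; Zbtb16 had no entry in the table used here. The full palindrome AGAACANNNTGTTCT, which reads the same on both strands and holds a half-site at each end, was in 3 of 32851 windows of that length (0.00913%). One of the 3 is the window chr10:21993640-21993939 (+) of Sgk1, where it lies from -189 to -175 relative to the start. The half-site alone (AGAACA, or TGTTCT on the other strand) was in 5 of the 12 windows and in 19% of all windows. It was found in 3 windows of Sgk1, in the window chr12:16610917-16611216 (-) of Lpin1 at -163, and in 1 window of Tsc22d3. The window chr8:109990186-109990485 (+) of Tat and the window chr17:28486100-28486399 (-) of Fkbp5 held no half-site. The 3 windows printed here lie inside the spans given below for their genes, at annotated starts that are not the outermost. Capitals mark the half-sites and the palindrome.
Sgk1: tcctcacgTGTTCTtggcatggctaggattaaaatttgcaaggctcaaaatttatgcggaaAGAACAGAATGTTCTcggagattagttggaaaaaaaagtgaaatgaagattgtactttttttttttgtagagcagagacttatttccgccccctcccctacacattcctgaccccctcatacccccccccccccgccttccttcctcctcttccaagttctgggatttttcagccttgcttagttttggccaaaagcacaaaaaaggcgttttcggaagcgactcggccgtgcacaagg
Lpin1: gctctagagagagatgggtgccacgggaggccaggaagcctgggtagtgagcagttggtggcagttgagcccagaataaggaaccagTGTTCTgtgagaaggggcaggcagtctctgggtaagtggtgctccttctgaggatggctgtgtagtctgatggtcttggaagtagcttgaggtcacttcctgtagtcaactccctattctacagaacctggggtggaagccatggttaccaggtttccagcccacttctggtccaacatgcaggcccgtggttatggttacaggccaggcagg
Tat: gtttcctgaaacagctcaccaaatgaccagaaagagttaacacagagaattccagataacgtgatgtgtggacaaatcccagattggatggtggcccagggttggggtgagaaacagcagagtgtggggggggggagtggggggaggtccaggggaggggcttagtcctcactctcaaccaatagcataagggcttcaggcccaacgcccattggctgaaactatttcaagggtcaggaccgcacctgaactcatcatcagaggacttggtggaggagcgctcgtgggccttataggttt
The letters GTAAACA, a site of the FOXO factors that insulin holds out of the nucleus, were in 0 of the 12 windows and in 3.65% of all windows, counting both strands. The cyclic AMP element TGACGTCA, which is its own reverse complement, was in 0 of the 12 and in 1.79% of all. A match is a description of the sequence, and no match says only that these letters are not in these windows.

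Zbtb16 (chr9:48651797-48836225 in GRCm38.p6) encodes a zinc-finger repressor of transcription that glucocorticoid induces in many cell types. Its tested probe set read 203, 273 and 261 at 0 h with vehicle and 248, 194 and 227 at 0 h with rapamycin. The uninjected fasted mice read 28.9, 109, 261, 154 and 108. The injected fasted mice were thus all high, while the uninjected ones spread from near background to the injected level. After food with vehicle the gene read 6, 10 and 2 at 3 h, 21, 0 and 12 at 6 h, and 32, 32 and 24 at 12 h. With rapamycin it read 10, 8 and 11 at 3 h, 12, 7 and 16 at 6 h, and 88, 37 and 39 at 12 h. Nonfasted mice read 22 and 32 with vehicle and 25 and 26 with rapamycin. All arrays at 3 h and 6 h were at or below 30 under both drugs, so only bounds can be given there. Zbtb16 was at least 8.12-fold lower in vehicle-treated mice at 3 h and at 6 h than at 0 h. The fitted changes, which depend on the floor, were -5.05 ± 0.52 (SE) at 3 h (limma, adjusted p = 5.39e-07) and -4.38 ± 0.52 at 6 h (adjusted p = 1.57e-06). Over the alternatives the fitted change at 3 h ran from -5.41 with the floor halved to -3.02 with a floor of 30.

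At 12 h Zbtb16 was still lower than at 0 h, with a change of -3.07 ± 0.52 with vehicle (limma, adjusted p = 7.05e-05). From 3 h to 12 h of food it was called higher, with a change of 1.98 ± 0.52 (adjusted p = 0.015), beside 5.8% of all tested probe sets called higher. That call rested on values near background: with a floor of 30 the change was 0.06 (adjusted p = 1), and with the floor doubled it was 1.20 (adjusted p = 0.0821). Without vehicle 3 h replicate 1, vehicle 3 h replicate 3 or vehicle 12 h replicate 2, the adjusted p was 0.0533, 0.06 and 0.053.

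The second probe set of Zbtb16 is built on the same transcript and was called present on no array. It read above 30 on 2 of 33 arrays, both of the rapamycin group at 0 h (53, 63 and 16), where the vehicle group read -46, -55 and 11. These groups lie in different array sets. No fold is given for it, since the vehicle arrays and 1 of the rapamycin arrays were at or below 30 and no array was called present.

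Lpin1 (chr12:16535669-16653903) encodes a phosphatidate phosphatase of fat synthesis that also acts in the nucleus with regulators of fatty acid oxidation. It read 1035, 1024 and 723 at 0 h with vehicle and 789, 774 and 1102 with rapamycin. The uninjected fasted mice read 422, 402, 587, 606 and 183, all below the injected ones. After food with vehicle Lpin1 read 52, 68 and 72 at 3 h, 89, 53 and 77 at 6 h, and 53, 86 and 88 at 12 h. The level was therefore low by the first time measured, and the 3 refed groups overlapped. With rapamycin it read 47, 66 and 48 at 3 h, 102, 53 and 49 at 6 h, and 147, 89 and 98 at 12 h. Nonfasted mice read 67 and 78 with vehicle and 42 and 72 with rapamycin. The 11 fasted arrays all lay above the highest of the 22 fed arrays (147). The changes with vehicle were -3.85 ± 0.36 at 3 h (limma, adjusted p = 1.73e-07), -3.68 ± 0.36 at 6 h (8.95e-08) and -3.63 ± 0.36 at 12 h (5.78e-08), or 14.4-, 12.8- and 12.4-fold lower. Its fall had rank 6, 12 and 8 among the 6568 probe sets at these times. The probe set of Lpin1 read above 30 on all 33 arrays but was called present on 26 of them. The calls were not tied to samples.

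Fkbp5 (chr17:28398753-28486149) encodes FKBP51, a co-chaperone of Hsp90 that lowers the receptor's affinity for its hormone and is itself able to bind rapamycin. It read 338, 390 and 286 at 0 h with vehicle, and 254, 210 and 509 with rapamycin. The uninjected fasted mice read 169.5, 240, 235, 329 and 149. The 3 fasted groups overlapped. After food with vehicle Fkbp5 read 155, 38 and 29 at 3 h, 63, 44 and 22 at 6 h, and 100 to 117 at 12 h, with a mean of 106 ± 9.54 (SD). With rapamycin it read 56, 106 and 63 at 3 h, 90, 98 and 83 at 6 h, and 171, 111 and 106 at 12 h. Nonfasted mice read 68 and 93 with vehicle and 58 and 22 with rapamycin. Of the 11 fasted arrays 9 lay above the highest fed array (171), and the exceptions were uninjected mice. With vehicle the changes were -2.60 ± 0.48 at 3 h (limma, adjusted p = 0.000532), -3.09 ± 0.48 at 6 h (4.74e-05) and -1.67 ± 0.48 at 12 h (0.00962). The change from 3 h to 12 h did not pass in the full data, at 0.93 ± 0.48 (0.219), but 1 array decided it: without vehicle 3 h replicate 1 (155) it was 1.67 (adjusted p = 0.0206).

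Sgk1 (chr10:21882184-21999903) encodes a serine/threonine kinase that acts downstream of insulin signalling and of mTORC2. It read 397, 178 and 114 at 0 h with vehicle and 121, 240 and 227 with rapamycin. The uninjected fasted mice read 211.6, 246, 148, 158 and 142. The spread within the vehicle group at 0 h was the widest of this gene, with an SD of 148 on a mean of 230. After food with vehicle Sgk1 read 85, 83 and 76 at 3 h, 75, 90 and 64 at 6 h, and 88, 63 and 86 at 12 h. With rapamycin it read 96, 95 and 90 at 3 h, 87, 91 and 98 at 6 h, and 65, 69 and 61 at 12 h. Nonfasted mice read 88 and 92 with vehicle and 92 and 85 with rapamycin. The 11 fasted arrays all lay above the highest fed array (98), and the fed arrays kept to a narrow band from 61. The changes with vehicle were -1.30 ± 0.30 at 3 h (limma, adjusted p = 0.00316), -1.41 ± 0.30 at 6 h (0.00123) and -1.36 ± 0.30 at 12 h (0.00107). Without vehicle 0 h replicate 1 (397) they were -0.81 (adjusted p = 0.0299), -0.91 (0.0137) and -0.87 (0.0121).

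Tat (chr8:109986078-109999804) encodes tyrosine aminotransferase, which takes the first step of tyrosine breakdown and is a classic marker of the liver's response to glucocorticoid. It read 4031, 3883 and 2740 at 0 h with vehicle and 2863, 3916 and 3775 with rapamycin. The uninjected fasted mice read 2793.6, 3107, 3091, 3631 and 1448. Apart from the last of these, all fasted arrays lay above every fed array, of which the highest read 2216. After food with vehicle Tat read 2005, 1914 and 2075 at 3 h, 1849, 1598 and 1930 at 6 h, and 1333, 1831 and 1839 at 12 h. With rapamycin it read 1932, 1935 and 1956 at 3 h, 1036, 1403 and 1583 at 6 h, and 1011, 1185 and 1338 at 12 h. Nonfasted mice read 2216 and 2012 with vehicle and 1231 and 1482 with rapamycin. Tat thus stayed well above background in fed liver, unlike Zbtb16. The changes with vehicle were -0.81 ± 0.24 at 3 h (limma, adjusted p = 0.0166), -0.97 ± 0.24 at 6 h (0.0043) and -1.09 ± 0.24 at 12 h (0.00103), or 1.75-, 1.96- and 2.12-fold lower. Without vehicle 0 h replicate 1, vehicle 0 h replicate 2 or vehicle 3 h replicate 2, the adjusted p at 3 h was 0.0705, 0.0703 and 0.0561.

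Tsc22d3 (chrX:140539528-140600522) encodes GILZ, a leucine-zipper protein that carries part of the anti-inflammatory action of glucocorticoid. Its probe set read -64 to 59 over the 33 arrays, at or below 0 on 10 of them and above 30 on 7. At 0 h it read 2, 11 and -25 with vehicle and 59, 11 and 31 with rapamycin. At 6 h it read 3, 2 and -7 with vehicle. The array gave no level for this gene in fasted or fed liver, so its response is not described.

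**Figure D2:**
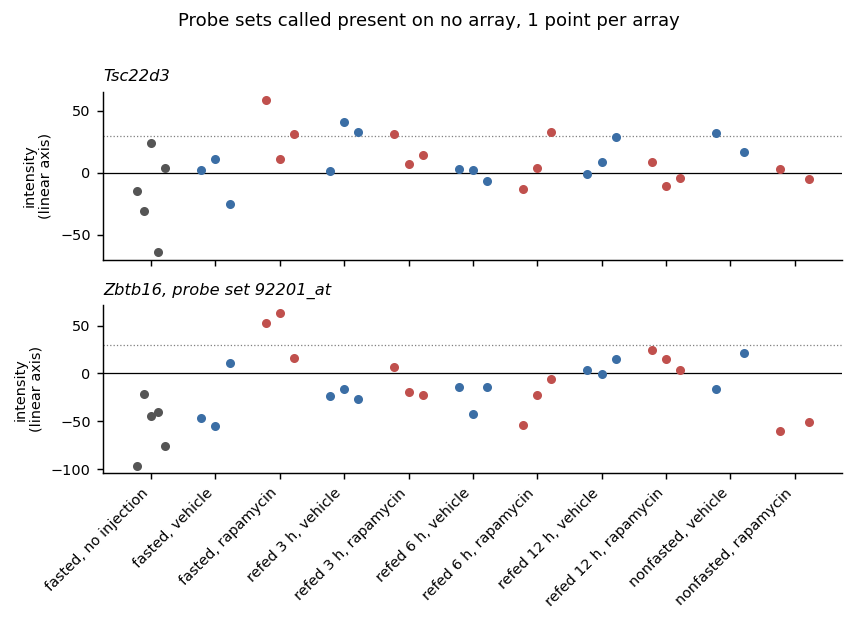
Intensity (linear axis) of the probe set of Tsc22d3 and of the untested probe set of Zbtb16 on each array, 1 point per array, with lines at 0 and at 30 (dotted). The points lie on both sides of 0, with 7 and 2 of 33 arrays above 30.

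In the order of mean log2 levels over the 11 groups, the 3 fasted groups came first for each of the 5 genes. For Zbtb16, Fkbp5, Sgk1 and Tat the 3 fasted groups overlapped each other in that order. For Lpin1 the uninjected fasted group did not overlap the rapamycin group at 0 h above it (limma, adjusted p = 0.0259) or the rapamycin group at 12 h below it (adjusted p = 6.08e-05). For Sgk1 the step from the uninjected fasted group to the next, rapamycin at 3 h, also passed (adjusted p = 0.0186). The same step did not pass for Zbtb16 (0.0618), Fkbp5 (0.153) or Tat (0.276), where the next groups were rapamycin at 12 h, rapamycin at 12 h and nonfasted vehicle. Among the 8 fed groups no pair of neighbours in the order differed past the threshold for any of the 5 genes. Neighbours are the closest groups by the way they were ordered, so this says nothing of fed groups further apart. Zbtb16 at 12 h and at 3 h with vehicle, which are not neighbours, differed as given above, on values near background.

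The comparison of vehicle at 3 h with vehicle at 0 h crosses the array sets. There all 5 genes were called lower, beside 2.54% of all tested probe sets. When the fit also held a term for the array set, Zbtb16 stood at -5.30 (limma, adjusted p = 0.000377), Lpin1 at -3.67 (0.000377) and Fkbp5 at -2.65 (0.0483), while Sgk1 at -1.42 (0.0959) and Tat at -1.0 (0.137) no longer passed. At 12 h all 5 were called lower, beside 9.3% of all tested probe sets. With the term Fkbp5 stood at -1.72 (adjusted p = 0.113) and the other 4 still passed. The part of the array set in these values was not tested. At 6 h, within 1 set, all 5 were called, but when only the 6 arrays of that comparison were fitted Sgk1 (adjusted p = 0.187) and Tat (0.0528) did not pass.

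**Figure D3:**
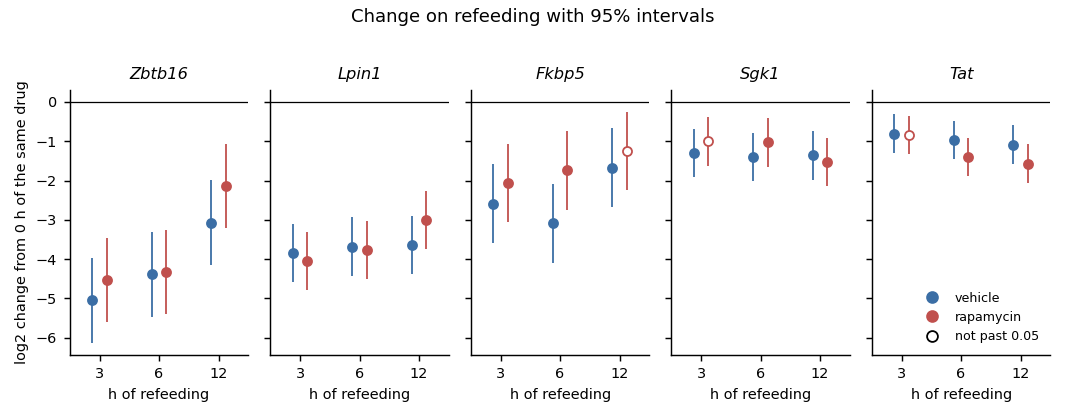
Log2 change of 5 genes (vertical axis) after 3, 6 and 12 h of food (horizontal axis) from 0 h of the same drug, with 95% intervals from limma. Filled points passed an adjusted p of 0.05 and open points did not. Lpin1 lies between -4.05 and -3.01 at all times, and Zbtb16 lies closer to 0 at 12 h than at 3 h.

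The uninjected fasted mice give a second reference for refeeding that shares no mouse with vehicle at 0 h. Against it all 5 genes were called lower at 6 h with vehicle, beside 11.6% of all tested probe sets, again within 1 array set. The arrays at 6 h are the same as in the comparison with vehicle at 0 h. Food and injection differ together between these groups and cannot be told apart. The changes were -3.19 ± 0.46 for Zbtb16 (limma, adjusted p = 1.64e-05; at least 3.58-fold lower), -2.51 ± 0.32 for Lpin1 (2.81e-06), -2.46 ± 0.43 for Fkbp5 (0.000161), -1.23 ± 0.27 for Sgk1 (0.00132) and -0.59 ± 0.21 for Tat (0.0384). The call for Tat was the least firm. It was lost without any 1 of uninjected replicates 1 to 4 or of the 3 vehicle replicates at 6 h (adjusted p = 0.0563 to 0.144), and without uninjected replicate 5 the change was -0.81 (adjusted p = 0.000654).

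Both fasted groups without rapamycin had gone 24 h without food and differed in the injection. Lpin1 was called higher after vehicle injection than without one, at 927 ± 177 (SD, n = 3) against 440 ± 171 (n = 5), a change of 1.17 ± 0.32 (limma, adjusted p = 0.0336). It was the only 1 of the 5 called, beside 2.94% of all tested probe sets called higher. That call was lost without uninjected replicate 2 or 5 or without vehicle 0 h replicate 1 or 2 (adjusted p = 0.0556 to 0.18). Zbtb16 stood at 1.19 ± 0.46 (adjusted p = 0.126), at 1.52 without uninjected replicate 3 (adjusted p = 0.0497) and at 0.72 without uninjected replicate 1 (adjusted p = 0.249). Fkbp5 stood at 0.64 ± 0.43 (0.406), Tat at 0.38 ± 0.21 (0.302) and Sgk1 at 0.18 ± 0.27 (0.779).

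Mice that were never fasted also had low levels. Nonfasted vehicle mice were lower than vehicle at 0 h in all 5 genes, beside 10.1% of all tested probe sets, with changes of -3.20 for Zbtb16, -3.66 for Lpin1, -2.08 for Fkbp5, -1.16 for Sgk1 and -0.73 for Tat. That comparison crosses the array sets, and with the set as a term only Zbtb16 and Lpin1 passed. Without vehicle 0 h replicate 1 or nonfasted vehicle replicate 2 there were 3 calls, and without nonfasted vehicle replicate 1 there were 2. Sgk1 stood at -0.66 (limma, adjusted p = 0.0833) without vehicle 0 h replicate 1. Tat was also lost without vehicle 0 h replicate 2 (adjusted p = 0.101), with quantile normalization (-0.63, adjusted p = 0.0615) and with no detection filter (0.0652). Within 1 set, nonfasted rapamycin mice were lower than the uninjected fasted mice in all 5, beside 10.9% of all tested probe sets, with changes from -2.88 (Lpin1) to -0.99 (Tat). Feeding and drug differ together in that comparison and cannot be told apart. Without nonfasted rapamycin replicate 1 it gave 3 calls, and without replicate 2 it gave 2. Between nonfasted vehicle and vehicle at 12 h of food none of the 5 was called, beside 6% of all tested probe sets called either way, and none of the 5 had an unadjusted p under 0.05, beside 19% of all.

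Refed mice given rapamycin also had low levels. From 0 h to 12 h with rapamycin, within 1 array set, 4 of the 5 were called lower, beside 10.4% of all tested probe sets. The changes were -2.14 ± 0.52 for Zbtb16 (limma, adjusted p = 0.00385), -3.01 ± 0.36 for Lpin1 (1.54e-06), -1.53 ± 0.30 for Sgk1 (0.000591) and -1.57 ± 0.24 for Tat (3.45e-05). Fkbp5 stood at -1.25 ± 0.48 (0.0607), and at an adjusted p of 0.0487 with a floor of 30. Tat was 2.98-fold lower at 12 h with rapamycin and 2.12-fold lower with vehicle. The comparison with vehicle crosses the array sets, and no difference between the drugs was called for Tat at 12 h.

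At 3 h with rapamycin Zbtb16, Lpin1 and Fkbp5 were called lower, beside 1.2% of all tested probe sets. The changes were -4.53, -4.05 and -2.06, and Zbtb16 was at least 7.40-fold lower there. Sgk1 stood at -1.0 ± 0.30 (limma, adjusted p = 0.0772) and Tat at -0.84 ± 0.24 (0.0542), and without rapamycin 0 h replicate 1 both passed (0.0157 and 0.0362). Without rapamycin 0 h replicate 3 (which read 509), or rapamycin 3 h replicate 1 or 3, Fkbp5 did not pass (0.0829 to 0.116). At 6 h all 5 were called lower, beside 10.1% of all tested probe sets, with changes of -4.33 (at least 7.40-fold lower), -3.77, -1.74, -1.03 and -1.40 for Zbtb16, Lpin1, Fkbp5, Sgk1 and Tat. Without rapamycin 0 h replicate 3, Fkbp5 no longer passed at 6 h (0.082). Without that array, rapamycin 0 h replicate 2, or rapamycin 6 h replicate 1 or 2, Sgk1 did not pass (0.0513 to 0.0922). Both comparisons hold arrays of each set, and with the set as a term Fkbp5 and Sgk1 did not pass at 6 h.

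The study's question is what rapamycin does, and for these genes no difference from vehicle was called. In fasted mice (0 h) none of the 5 was called, beside 5.36% of all tested probe sets called either way, and none had an unadjusted p under 0.05, beside 21% of all. The intervals (95%, limma) ran from -1.21 to 0.94 for Zbtb16, -0.80 to 0.68 for Lpin1, -1.16 to 0.84 for Fkbp5, -0.71 to 0.52 for Sgk1 and -0.50 to 0.48 for Tat. Differences of up to about these sizes are not excluded by these data. The 2 groups lie in different array sets.

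After food the counts were also 0 of 5 at 3 h (beside 0.305% of all tested probe sets), at 6 h (0.0152%) and at 12 h (0.32%), and in nonfasted mice (1%). Unadjusted p was under 0.05 for 0, 1, 1 and 1 of the 5, beside 7.66%, 5.97%, 7.98% and 12.7% of all tested probe sets. At 6 h that was Fkbp5, which read 90, 98 and 83 with rapamycin and 63, 44 and 22 with vehicle. The difference was 1.20 ± 0.48 (limma, adjusted p = 0.697), and it was 1.53 without vehicle 6 h replicate 1 and 0.78 without vehicle 6 h replicate 3. At 12 h it was Tat, with 1011, 1185 and 1338 against 1333, 1831 and 1839, which overlapped. The difference was -0.50 ± 0.24 (adjusted p = 0.614). In nonfasted mice it was Tat again, with 1231 and 1482 against 2216 and 2012, and a difference of -0.64 ± 0.29 (adjusted p = 0.36).

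The drug groups did not overlap for 1 of the 5 genes at 3 h, beside 12.5% of all tested probe sets, for 2 at 6 h (11.5%), 2 at 12 h (17.6%) and 2 in nonfasted mice (48.9%). At 3 h this was Sgk1, higher with rapamycin by 0.20 ± 0.30 (limma, adjusted p = 0.924). At 6 h it was Fkbp5, as above, and Tat, whose difference was -0.44 ± 0.24 (adjusted p = 0.885). At 12 h it was Zbtb16 at 0.79 ± 0.52 (0.808) and Lpin1 at 0.56 ± 0.36 (0.806). Without rapamycin 12 h replicate 1 these stood at 0.39 and 0.34, and Lpin1 stood at 0.32 without vehicle 12 h replicate 1. In nonfasted mice it was Tat, as above, and Fkbp5 at -1.15 ± 0.59 (0.431), which stood at -1.85 without nonfasted rapamycin replicate 1 and at -0.46 without replicate 2.

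Within 1 array set only the comparison at 12 h sets the drugs side by side, and its values are those above. No difference by drug in the change on refeeding was called for any of the 5 genes in an F-test over 3, 6 and 12 h (limma, adjusted p = 0.687 to 0.851), where 1.31% of all tested probe sets passed. None of the 5 had an unadjusted p under 0.05, beside 13.6% of all. The mean difference between the drugs over the 3 times was chosen as an alternative after the data had been seen. It gave 0 calls, beside 1.46% of all tested probe sets, with Fkbp5 at 0.61 ± 0.28 (adjusted p = 0.37), Tat at -0.32 ± 0.14 (0.322) and Zbtb16, Sgk1 and Lpin1 at 0.36, 0.07 and 0.05. Fkbp5 and Tat had unadjusted p-values of 0.0395 and 0.0266, and 12.3% of all tested probe sets had one under 0.05.

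**Figure D4:**
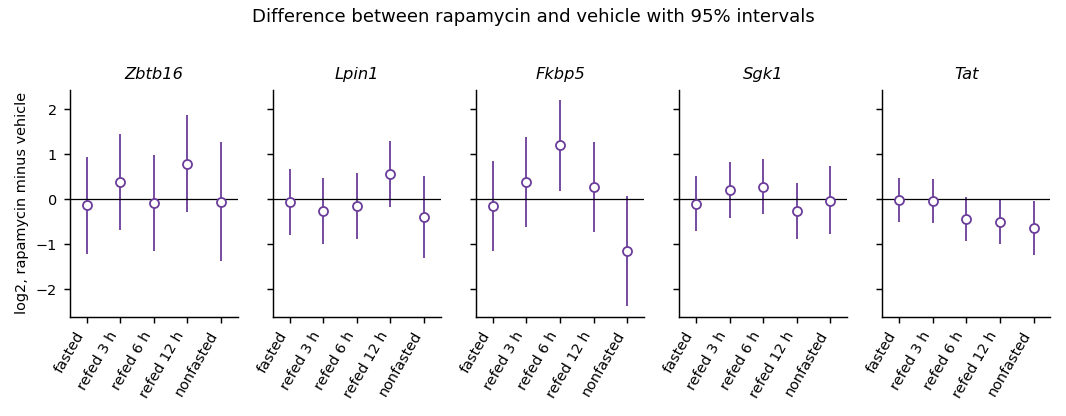
Log2 difference between rapamycin and vehicle (vertical axis) for 5 genes in fasted, refed and nonfasted mice (horizontal axis), with 95% intervals from limma. All points are open, since none passed an adjusted p of 0.05. Values lie on both sides of 0, and those of Fkbp5 at 6 h (1.20) and in nonfasted mice (-1.15) moved to 0.78 and -0.46 when 1 array was left out.

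The supply of hormone to the receptor is set by genes of its own. Of 8 listed genes for ligand supply and transport 5 were on the array and tested. Serpina6, which encodes the corticosteroid-binding globulin that liver secretes to carry the hormone in blood, was the 1 called higher at 6 h with vehicle, beside 14.2% of all tested probe sets, at 697 ± 215 (SD, n = 3) against 186 ± 66.9 (n = 3). Its change was 1.94 ± 0.30 (limma, adjusted p = 4.74e-05). At 3 h it was at 222 ± 59.2, with a change of 0.30 ± 0.30 (adjusted p = 0.52), and at 12 h at 1120 ± 239, with a change of 2.64 ± 0.30 (4.3e-07). From 3 h to 12 h it rose by 2.34 ± 0.30 (2.23e-05), at times when the 5 genes were already low. With rapamycin at 12 h it was at 1400 ± 128, with a change of 3.05 ± 0.30 from rapamycin at 0 h (1.2e-07), and the difference from vehicle at 12 h was 0.35 ± 0.30 (0.904). Hsd11b1, the enzyme that regenerates active hormone inside hepatocytes, was at 817 ± 98.5 at 0 h and 922 ± 54.5 at 6 h with vehicle, a change of 0.18 ± 0.12 (0.35). It was called higher at 12 h with rapamycin, by 0.40 ± 0.12 (0.0182), beside 14.6% of all tested probe sets called higher. H6pd, which feeds that enzyme its cofactor, stood at -0.53 ± 0.19 at 6 h (0.0516). Nr0b2, a nuclear receptor that acts as a repressor, read -39 to 2 at 0 h and -35 to 65 at 6 h with vehicle, and no fold is given for it near background.

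**Figure D5:**
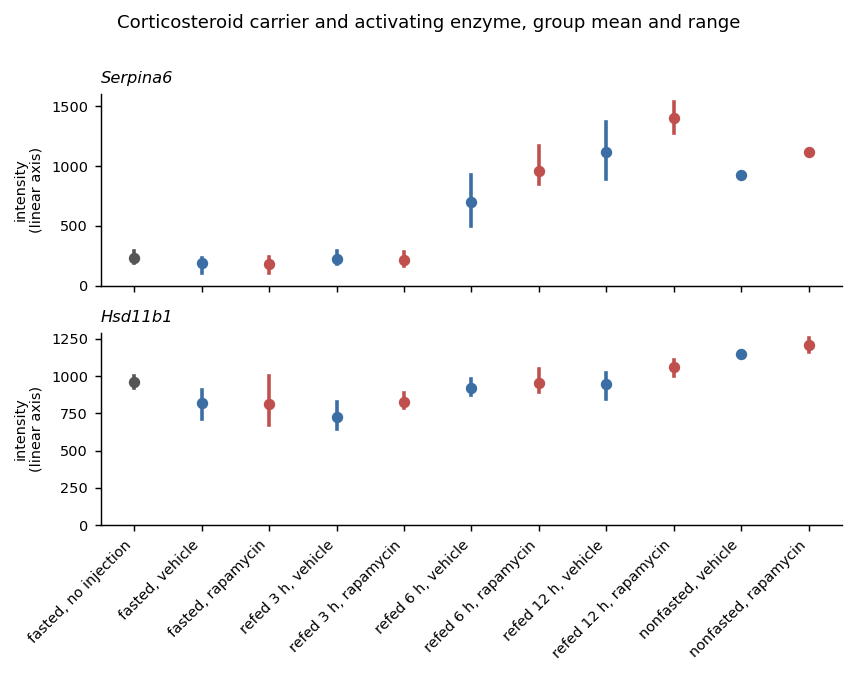
Intensity (linear axis from 0) of Serpina6 and Hsd11b1 in 11 groups, with the group mean as a point and the lowest to highest array as a bar. Serpina6 is at 180 to 235 on average in the fasted groups and at 3 h, and at 697 to 1400 in the 6 h, 12 h and nonfasted groups.

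Of 13 listed genes for the receptor and its chaperones 9 were on the array and 8 were tested. At 6 h with vehicle 3 were called higher and 0 lower, beside 14.2% and 6.9% of all tested probe sets, and the median log2 change was 0.74, beside 0.02 for all. The 3 were Stip1, which links Hsp70 to Hsp90, at 2.05 ± 0.46 (limma, adjusted p = 0.00225), Fkbp4, the co-chaperone that competes with FKBP51 for the receptor complex, at 1.15 ± 0.26 (0.00234), and Hsp90aa1, which holds the receptor ready for hormone, at 0.99 ± 0.25 (0.00493). Fkbp4 and Fkbp5 thus changed in opposite directions in the same mice. At 12 h with rapamycin 4 of the 8 were higher and 0 lower, beside 14.6% and 10.4% of all, with Fkbp4 at 0.93 (adjusted p = 0.0106) and Stip1 at 1.74 (0.00767). The others counted were Nr3c1 and Bag1, the latter named after its values were seen. Nr3c1 read 7 to 10 at 0 h and 16 to 19 at 12 h, and Bag1 read 10 to 16 and 44 to 48. Both thus had all arrays at or below 30 at 0 h, and Nr3c1 also at 12 h. Hsp90aa1 stood at 0.16 (0.68) there, at 0.56 (0.0795) at 12 h with vehicle and at -0.10 (0.842) in nonfasted vehicle mice against vehicle at 0 h. In nonfasted rapamycin mice it was lower than in uninjected fasted mice, by a change of -0.77 (limma, adjusted p = 0.0278). The receptor gene Nr3c1 read 5 to 22 over all 33 arrays, below 30 throughout. No fold is given for it, since no group was well above background.

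Other genes known to be induced by glucocorticoid were read from a list of 26, chosen with earlier results of these data known. Of these, 24 were on the array and 23 were tested. At 6 h with vehicle 13 were called lower and 1 higher, beside 6.9% and 14.2% of all tested probe sets, and the median log2 change was -1.31, beside 0.02 for all. Klf9, a zinc-finger factor induced directly by the receptor, went from 426 ± 76.6 to 170 ± 14 (SD, n = 3 each), a change of -1.31 ± 0.16 (limma, adjusted p = 2.44e-06). Cebpb, a leucine-zipper factor of the fasting response, went from 693 ± 357 to 125 ± 26.5, a change of -2.31 ± 0.42 (0.000269). Cdkn1a, the cell cycle inhibitor p21, read 127 to 335 at 0 h and -16 to -14 at 6 h, and was at least 7.58-fold lower (1.95e-08). Tdo2, the first enzyme of tryptophan breakdown, stood at -0.67 ± 0.14 (0.00118). Mt1 and Mt2, the metallothioneins that bind zinc, were named after their values were seen. Mt1 read 2036 to 4665 at 0 h and 166 to 216 at 6 h, a change of -3.78 ± 0.72 (0.000419), and Mt2 stood at -3.34 ± 0.73 (0.00167). The count of 13 rests in part on values near background. Cebpd, Gadd45b, Gadd45g, Ppargc1a and Ddit4, named after their values were seen, had all arrays at or below 30 at 6 h. Each also had at least 1 such array at 0 h, where Ppargc1a read 10 to 47. The 1 called higher, named after its values were seen, was Gadd45a, a stress-response gene. It read -51 to -30 at 0 h and -10 to 65 at 6 h, with 1 array above 30. At 12 h with rapamycin 14 were lower and 1 higher, beside 10.4% and 14.6% of all tested probe sets, with a median of -1.53. Of those lower, Per1, Gadd45b, Gadd45g and Ppargc1a had all arrays at or below 30 at 12 h and at least 1 at 0 h.

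Between vehicle at 0 h and the uninjected fasted mice 3 of the 23 were called higher, beside 2.94% of all tested probe sets. They were named after their values were seen. Glul, which makes glutamine, read 388 to 604 with vehicle and 208.6 to 356 uninjected, a change of 0.95 ± 0.21 (limma, adjusted p = 0.0143). Gadd45b read -33 to 165 against -7.3 to 17 (0.0193), and Ppargc1a, a coactivator of gluconeogenic genes, 10 to 47 against -1 to 13 (0.0216), so that both lay near background. Klf9 stood at 0.03 ± 0.14 (1) in that comparison. Between rapamycin and vehicle 0 of the 23 were called at 0 h, beside 5.36% of all tested probe sets, and 0 at 12 h, beside 0.32%.

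Many of these genes also answer to insulin, glucagon or fatty acids. Of 10 listed gluconeogenic and insulin-repressed genes 9 were on the array and 8 tested, and 6 were called lower at 6 h with vehicle and 0 higher, beside 6.9% and 14.2% of all tested probe sets. Their median log2 change was -1.88, beside 0.02 for all. Irs2, named after its values were seen, was among the 6 but lay near background, at -9 to 118 at 0 h and -40 to 2 at 6 h. Igfbp1, which binds insulin-like growth factor and is held down by insulin, went from 2880 ± 1640 to 31.3 ± 31.1 (SD, n = 3 each), a change of -6.76 ± 0.69 (limma, adjusted p = 1.65e-07), with 2 of 3 arrays at or below 30 at 6 h. G6pc, which releases glucose from the liver, went from 1620 ± 666 to 322 ± 34.8, a change of -2.27 ± 0.35 (4.51e-05). Angptl4, an inhibitor of lipoprotein lipase, went from 454 ± 125 to 146 ± 3.79, a change of -1.60 ± 0.22 (1.25e-05). The 5 genes thus fell in the same arrays as insulin-repressed genes, and the part of insulin in their values was not tested.

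Tat belongs to the enzymes of amino acid breakdown that glucocorticoid induces. Of 15 others listed 11 were on the array and 10 tested, and 3 were called lower at 6 h with vehicle and 0 higher, beside 6.9% and 14.2% of all tested probe sets. The median log2 change of the 10 was -0.33, beside 0.02 for all. The 3 were Arg1, the last enzyme of the urea cycle, at -0.62 ± 0.10 (limma, adjusted p = 6.44e-05), Asl, the step before it, at -0.82 ± 0.21 (0.00605), and Tdo2 as above. At 12 h with rapamycin 5 of the 10 were lower, beside 10.4% of all tested probe sets, with Arg1 at -0.80 ± 0.10 (3.13e-06) and Asl at -1.15 ± 0.21 (0.000293). Tdo2 and Got1 each stand in 2 of these lists.

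Gene patterns were compared over the 11 group means of log2 levels, which share arrays and array sets, and Pearson's r is given as a description. Most like Zbtb16 were a second probe set of Angptl4 (r = 0.956), Slc25a47 (0.945), a mitochondrial carrier, and Susd6 (0.943). Most like Lpin1 were Cebpb (0.984), Cebpd (0.974) and the same probe set of Angptl4 (0.974). Most like Fkbp5 were Cebpb (0.933), Susd6 (0.926) and Ell2 (0.923), a factor of transcription elongation. Most like Sgk1 were Klf9 (0.955), Igfbp1 (0.938) and Cebpd (0.936). Most like Tat were Gadd45g (0.943), Retreg1 (0.942), a receptor for autophagy of the endoplasmic reticulum, and Adcy9 (0.934), an adenylate cyclase. None of the 5 genes was among the 3 most like any other of them. Between pairs of the 5 genes r ran from 0.659 (Zbtb16 and Tat) to 0.929 (Zbtb16 and Lpin1).

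In whole liver, fewer cells of a type and less RNA per cell cannot be told apart. The summed hepatocyte markers were at 15070 to 17164 at 0 h and at 13882 to 14972 at 6 h with vehicle, which did not overlap, and 1 of the 4 was called lower and 1 higher. At 12 h they were at 12497 to 13747 with vehicle, and with rapamycin at 12454 to 14640 against 15325 to 18325 at 0 h. In both 12 h comparisons 3 of the 4 were called lower and 1 higher. The summed markers of Kupffer cells and macrophages (6 of 7 tested) were at 347 to 459 at 0 h and at 508 to 623 at 6 h, and 2 of the 6 were called higher. Of 2 erythroid markers, 1 was called lower at 6 h with vehicle and 0 at 12 h with rapamycin. Of 2 stellate cell or fibroblast markers tested, 1 was called higher and 0 lower at 6 h with vehicle. The 1 neutrophil marker tested was called lower there. Of 2 endothelial markers tested 1 was called higher, as was the 1 pancreas marker tested. Of all tested probe sets 6.9% were called lower and 14.2% higher in that comparison. The summed pancreas markers were at 92 to 158 in nonfasted mice and at 10 to 75 in all other groups. The part of these shifts in the values of the 5 genes was not tested. The p-values set a difference between group means against the spread between arrays within groups, taken over all 11 groups together. Their precision is limited by how few arrays each group has.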

How the data were processed

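The authors' deposited values are average-difference intensities of Affymetrix arrays on a linear scale, with negative values kept; per the file headers each array was scaled by a factor of the authors', and 30 was their cut-off for low values. From these deposited intensities, values under 6.31 (0.1 of the mean of the arrays' 2% trimmed means) were raised to 6.31 and log2 was taken. Probe sets present by the authors' detection calls on at least 3 of 33 arrays, without 66 control probe sets, were tested. The calls were counted over all arrays and not tied to samples, and 66 columns of other per-array values were not used. limma 3.58.1 (R 4.3.3) was fitted to 11 group means with 22 residual and 1.89 prior degrees of freedom and Benjamini-Hochberg adjustment, and the fitting was tested on simulated data. Where a whole group was at or below 30, a bound was given as the brighter group's mean log2 (values under 30 set to 30) over 30. Of 12488 probe sets 10855 carried 1 symbol, 396 several and 1237 none in the platform annotation, which is old. Arrays of a group correlated at 0.906 to 0.975, and 2989 to 5714 probe sets were present per array.

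The members and lists were chosen with earlier results of these data known. List genes were named by the 3 lowest p-values per list at 6 h with vehicle, plus Nr3c1, Hsd11b1 and Serpina6, and exceptions are marked. For a list gene the brightest probe set was read. For the genes most alike, the 3 with the highest Pearson correlation were named. Alternatives were other scalings, floors, filters, priors, an array-set term, the replicate number as a block, fits of only the groups compared, and each array left out. Replicate numbers did not pair samples (correlation of same-numbered deviations from -0.427 to 0.213).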

Additional observations from a re-analysis of the deposited data

How the results depend on the processing

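Of 44 called differences of the 5 genes, 684 of 760 alternative values kept the call, 76 lost it and 0 changed sign. The counts of genes called, each 5 in the full data unless stated, changed by more than 1.5 times as follows. With a term for the array set, with or without a floor of 30, there were 3 for vehicle at 3 h and 3 for rapamycin at 6 h, each against 0 h of the same drug; for nonfasted vehicle against vehicle at 0 h there were 2, and 3 with the floor. That term rests on the rapamycin groups at 3 h and 6 h, the only ones with arrays of both sets. With only the groups compared there were 2 at 3 h and 3 at 6 h with vehicle, 3 for nonfasted vehicle and 3 for nonfasted rapamycin against uninjected fasted mice. For vehicle at 0 h against uninjected (1 in the full data) there were 0 with no filter, 0 with the replicate block (Lpin1 0.98, adjusted p = 0.0946) and 0 with only these groups. For vehicle at 12 h against 3 h (1) there were 0 with the floor doubled, at 30, or at 30 with the term. Rapamycin against vehicle at 0 h (0) gave 1 with no filter, which was the untested probe set of Zbtb16. With each array left out the counts ran from 0 to 1 for 12 h against 3 h, 0 to 2 for vehicle at 0 h against uninjected, 2 to 5 for both nonfasted comparisons and for rapamycin at 3 h (3), and 3 to 5 for rapamycin at 6 h. Smaller changes were to 4 for vehicle at 6 h against uninjected with quantile normalization, no filter or only the groups compared, and for nonfasted vehicle with the first 2 of these. Vehicle at 12 h against 0 h gave 4 with the term, with the term and the floor, and with only the groups compared. Rapamycin gave 4 (robust eBayes or block) or 2 (only the groups) at 3 h, 4 (only the groups) at 6 h, and 5 (floor of 30 or robust eBayes) at 12 h, where the full data gave 4. Leaving out arrays gave 4 to 5 for vehicle at 3 h and for vehicle at 6 h against uninjected. The block changed the call of 1 other gene, Tat at 3 h with rapamycin (adjusted p = 0.00753). The fit of only the groups compared was not run for the F-test, and the cause of these changes was not tested.

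Only differences that were not called changed sign: 44 values of 15 results, up to 0.4 in size. With quantile normalization Sgk1 at 12 h against 3 h stood at 0.09, Zbtb16 and Lpin1 in nonfasted vehicle against vehicle at 12 h at 0.02 and 0.11, and Zbtb16 between drugs in nonfasted mice at 0.18. With trimmed-mean scaling Lpin1 in nonfasted vehicle against 12 h stood at 0.06, Tat between drugs at 3 h at 0.04, and Zbtb16 and Sgk1 between drugs in nonfasted mice at 0.06 and 0.09. With that term, Lpin1 between drugs at 0 h stood at 0.12, Tat at 3 h at 0.02, and Zbtb16 and Sgk1 in nonfasted mice at 0.20 and 0.09; a floor of 30 with it gave 0.12 for Lpin1, 0.02 for Tat and 0.09 for Sgk1. Zbtb16 between drugs stood at 0.25 at 6 h with the floor halved; with a floor of 30 all its arrays at 3 h and 6 h stood at the floor, so the difference had no sign. With each array left out, the drug difference at 0 h ran from -0.54 to 0.10 for Fkbp5, -0.23 to 0.03 for Lpin1, -0.50 to 0.40 for Sgk1 and -0.18 to 0.14 for Tat. It ran from -0.09 to 1.12 for Fkbp5 at 3 h, and at 6 h from -0.49 to 0.04 for Lpin1 and -0.52 to 0.34 for Zbtb16. In nonfasted mice it ran from -0.33 to 0.21 for Zbtb16 and -0.08 to 0.03 for Sgk1, and over the 3 refed times from -0.06 to 0.11 for Lpin1. Sgk1 ran from -0.31 to 0.59 for vehicle at 0 h against uninjected and from -0.14 to 0.10 for 12 h against 3 h. Nonfasted vehicle against 12 h ran from -0.40 to 0.14 for Zbtb16 and -0.27 to 0.10 for Lpin1.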

Other observations

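Among the 5 uninjected fasted mice, replicate 5 had the lowest level of Lpin1 (183), Fkbp5 (149), Sgk1 (142) and Tat (1448), and the next to lowest of Zbtb16 (108). Replicate 1 had the lowest level of Zbtb16 (28.9). Why these mice differ was not tested.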
